A study of Mus musculus with 6 samples.

Results

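The genes described here are 10 vascular growth factor and neuropilin genes, taken by name from the 55487 gene identifiers of a deposited count table: Vegfb, Vegfc, Vegfd, Pgf, Angpt1, Angpt2, Angptl2, Angptl4, Nrp1 and Nrp2. Each name matched 1 identifier. RNA was sequenced from cells of C57BL/6 mouse skin that the labels call endothelial cells (ECs), which were grown for 48 hours in medium with 5 mmol/L glucose (normal glucose, n = 3) or 20 mmol/L glucose (high glucose, n = 3). Cells of both groups were isolated with CD31 MicroBeads from the skin of 4 to 6 mice aged 2 to 3 months and carried no other stated treatment or allele. The legends of the study count the samples of a group as mice, its methods describe isolation from several mice, and the labels tie no sample to an animal or isolation, so the p-values below measure the spread between these samples, which may be technical. No osmotic control is among the groups, so an effect of glucose itself and of the solute load cannot be told apart.

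Blood and lymph vessels are steered by a small number of secreted factors. VEGF family ligands act on the receptor tyrosine kinases VEGFR1, VEGFR2 and VEGFR3 (Flt1, Kdr and Flt4), with VEGF-B and placental growth factor binding VEGFR1 and VEGF-C and VEGF-D being known for VEGFR3 and the growth of lymphatic vessels. Angiopoietin-1 activates the receptor Tie2 (Tek) on ECs and stabilizes vessels, and angiopoietin-2, which ECs themselves store and release, can block it. Neuropilins are coreceptors shared by VEGF ligands and class 3 semaphorins, a family of guidance proteins, and the angiopoietin-like proteins share the structure of angiopoietins without being ligands of Tie2.

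The label of the cells was checked first. Of 17 endothelial marker genes, 11 had enough counts to be tested. The summed level of all 17 was 78.8 to 81.8 normalized CPM under normal glucose and 63.3 to 64.3 under high glucose. Most of it came from Flt1. CPM are counts relative to the library total, here scaled between samples with the TMM method. Pecam1, which encodes CD31, had 9 to 19 counts per sample, Cdh5 had 91 to 242, Tie1, Emcn, Cldn5 and Robo4 had no more than 9, and Sox17 had 0 in every sample. A floor of 3 counts was 0.0211 to 0.0258 CPM, from 120192466 to 146881356 counts per sample. The summed level of 11 fibroblast markers was 38743 to 41939 normalized CPM under normal glucose and 71342 to 76259 under high glucose. Most of it came from the collagen genes Col1a1, Col1a2 and Col3a1, and the mean of Col3a1 alone went from 12419 to 32508. The mean of Pdgfra went from 1953 to 2682, and that of Thy1, the only marker of this list that was lower, from 1878 to 1419. The libraries therefore go against their cell type label, and the values below describe the cultures as they were sequenced. In bulk RNA, a smaller number of cells of a type and less RNA in each of them cannot be told apart.

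Promoter sequences were read for the members with an entry in the RefSeq table of GRCm38.p6, which were 7 of the 10; Angpt1, Angpt2 and Angptl4 had none. Of these 7 genes, 6 held a GC box (GGGCGG on either strand) within 250 bases before an annotated start. Counted by window, 6 of their 8 windows held it, against 32.7% of 32851 promoter windows of the same length. Those 6 windows were 64.4% to 76.4% G and C, and windows of like base composition were not compared for the GC box. The windows of Vegfc and Vegfb, related ligands that moved in opposite directions under high glucose, are shown, and both held this motif. Each is printed 5′ to 3′ on the gene's own strand, with GC boxes in capitals. In the Vegfd stretch, which shows a different base composition, the capitals mark the letters TATAAA.
Vegfc, chr8:54077282-54077531, plus strand: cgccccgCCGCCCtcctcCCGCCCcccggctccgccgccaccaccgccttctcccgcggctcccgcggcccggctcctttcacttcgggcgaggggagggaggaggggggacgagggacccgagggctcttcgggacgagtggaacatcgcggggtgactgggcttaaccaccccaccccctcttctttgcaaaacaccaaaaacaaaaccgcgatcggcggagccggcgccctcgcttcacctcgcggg
Vegfb, chr19:6987652-6987901, minus strand: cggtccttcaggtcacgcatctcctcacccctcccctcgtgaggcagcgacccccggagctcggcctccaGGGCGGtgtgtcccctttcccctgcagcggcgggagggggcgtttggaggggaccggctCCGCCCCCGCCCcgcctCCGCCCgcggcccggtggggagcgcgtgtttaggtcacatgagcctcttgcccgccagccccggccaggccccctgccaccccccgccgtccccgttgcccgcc
Vegfd, chrX:164373437-164373466, plus strand: ataccacctcctTATAAAgcagctagaacc
The Vegfc window held 2 GC boxes and was 71.6% G and C, and the Vegfb window held 4 and was 76.4% G and C. Nrp2, whose window is not printed, held the most, with 5, and Angptl2 held 2 like Vegfc. The Vegfd window was 42.4% G and C and held no GC box. Its TATAAA began 73 bases before the RefSeq start, and the window overlaps an annotated Vegfd exon. GENCODE places the start of the gene farther upstream, at 164373378, so by that annotation the match lies inside the gene. Of the 7 genes Vegfd alone held this motif, as did 12.4% of all windows. None of the 8 windows of these genes (Pgf has a pair of starts) held an E-box (CACGTG, 6.0% of all windows), the hypoxia response core ACGTG that the E-box contains (16.6%), an AP-1 site (TGANTCA, 6.7%) or a CCAAT box (CCAAT, 33.8%). These letters mark matches in short windows and say nothing about which factor was bound.

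All 10 members were among the 19015 genes that passed the filter on low counts. Under high glucose 7 were higher (Vegfc, Vegfd, Angpt1, Angptl2, Angptl4, Nrp1 and Nrp2) and 2 were lower (Vegfb and Angpt2), and Pgf did not pass the threshold. The threshold was an adjusted p under 0.05 in the quasi-likelihood test of edgeR, adjusted by the Benjamini-Hochberg (BH) procedure over all tested genes. Of all tested genes 31.4% passed it, 16.9% higher and 14.5% lower, so a change of this kind was common in these cultures. The samples of the groups did not overlap for 9 of the 10 members, 7 with all high-glucose samples above and 2 with all below. Among all tested genes 46.4% did not overlap, 25.1% above and 21.3% below. The median log2 fold change of the members was 0.39, against 0.0062 over all tested genes, and the median of its size regardless of direction was 0.51 against 0.20. The members were chosen with earlier results of these data known, so these shares and medians are a description only. Only Angptl4 and Angpt2 changed by at least 1 on the log2 scale, a size that 4.93% of tested genes reached with a call.
Library size scaling in place of TMM moved the median over all tested genes by -0.11 and turned the split of calls from 2757 lower and 3212 higher to 4881 lower and 1819 higher. The members' own calls were 7 higher and 2 lower under both scalings.

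**Figure D1:**
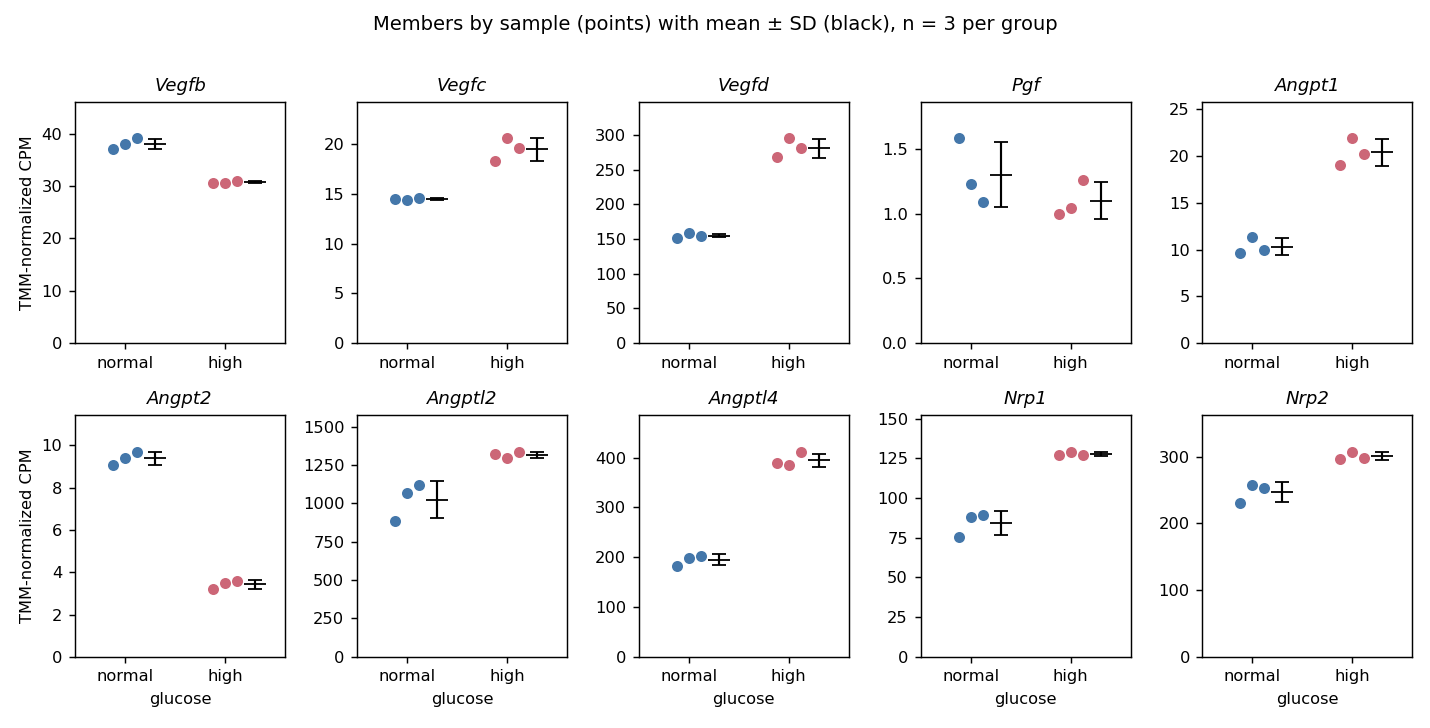
TMM-normalized CPM of the 10 members in each of the 3 normal-glucose (blue) and 3 high-glucose (red) samples, with the mean and SD in black and every axis starting at 0. The groups overlap only for Pgf. Angpt2 falls from above 9 to below 4 normalized CPM in every sample, and Angptl4 and Vegfd are the members with the clearest rise at a high level.

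Among the 4 VEGF family ligands examined here, Vegfd rose most. Vegfd (ENSMUSG00000031380, GRCm38 chromosome X, 164373378 to 164402650, plus strand) encodes VEGF-D, a lymphangiogenic ligand that is secreted as a precursor. Its level was 152, 158 and 154 normalized CPM in the normal-glucose samples and 268, 295 and 281 in the high-glucose samples. The lowest high-glucose sample was well above the highest normal-glucose sample, a log2 fold change of 0.86 (SE 0.0536, 95% interval 0.74 to 0.98, edgeR quasi-likelihood BH-adjusted p = 1.3e-06), or an increase of 81.9%.

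Vegfc (ENSMUSG00000031520, chromosome 8, 54077606 to 54187096, plus strand), whose product VEGF-C is the main growth factor of lymphatic vessels, rose less and from a lower level. It had 14.5, 14.4 and 14.6 normalized CPM under normal glucose and 18.3, 20.6 and 19.6 under high glucose. The normal-glucose samples lay close together and all high-glucose samples were above them, with a log2 fold change of 0.43 (SE 0.0615, 95% interval 0.29 to 0.56, edgeR quasi-likelihood BH-adjusted p = 4.6e-04).

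Vegfb moved the other way. Vegfb (ENSMUSG00000024962, chromosome 19, 6982473 to 6987651, minus strand) encodes VEGF-B, a VEGFR1 ligand with little effect on vessel growth of its own in most tissues. It had 37.1, 38.1 and 39.1 normalized CPM under normal glucose and 30.6, 30.5 and 30.9 under high glucose. The groups were separate, and the level fell by 0.31 on the log2 scale (SE 0.0491, 95% interval -0.42 to -0.20, edgeR quasi-likelihood BH-adjusted p = 8.2e-04).

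Pgf (ENSMUSG00000004791, chromosome 12, 85166635 to 85177790, minus strand), the placental growth factor, was the least abundant member, with 121 to 198 counts per sample. Its level was 1.58, 1.23 and 1.09 normalized CPM under normal glucose and 1.0, 1.04 and 1.26 under high glucose. The groups overlapped, and normal glucose replicate 1 was the highest sample. The log2 fold change was -0.24 with an interval from -0.61 to 0.13 (edgeR quasi-likelihood BH-adjusted p = 0.301, two-sided exact permutation p = 0.3), an interval that spans a fall, no change and a small rise. Without normal glucose replicate 1 it was -0.10 (adjusted p = 0.675 from the same edgeR test), and over all 19 alternatives the adjusted p ranged from 0.128 to 0.675.

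The receptors of these ligands did not move together. Flt1, the receptor of VEGF-B and placental growth factor, fell from 55.3 ± 2.06 to 38.4 ± 0.153 normalized CPM (SD, n = 3), and its log2 fold change was -0.53 (edgeR quasi-likelihood BH-adjusted p = 3.0e-05). Kdr and Flt4, with 4.95 ± 0.457 and 6.40 ± 0.505 normalized CPM under normal glucose (SD, n = 3), were at 0.15 and 0.22 on the log2 scale of change and did not pass (adjusted p = 0.252 and 0.0747 in the same edgeR test).
VEGF-C and VEGF-D are cut by proprotein convertases, and VEGF-C also by the protease Adamts3, for which Ccbe1 is a cofactor. Of 6 genes listed for the processing of these ligands, 4 were higher, 1 was lower and 1 did not pass. Pcsk5, a proprotein convertase, had 246, 269 and 268 normalized CPM under normal glucose and 751, 747 and 761 under high glucose. That is a log2 fold change of 1.53 (SE 0.0544, edgeR quasi-likelihood BH-adjusted p = 4.3e-08), with an interval above those of both ligands. Adamts3 rose by 0.64 and Ccbe1 by 0.52 on the log2 scale (adjusted p = 4.8e-04 and 0.00149, same edgeR test). Furin, another convertase, rose by 0.22 (adjusted p = 0.012, edgeR), a call that was lost with library size scaling (0.11, adjusted p = 0.148, edgeR) and without any 1 of the high-glucose samples. Adamts14, a procollagen protease related to Adamts3, fell by 0.29 (adjusted p = 0.013, edgeR), and this call was lost without normal glucose replicate 3 or high glucose replicate 3 (adjusted p = 0.0519 and 0.0556, edgeR). Pcsk7, at 0.12 on the log2 scale of change, did not pass (adjusted p = 0.0998, edgeR) and shares exonic positions with Rnf214 and Tagln on the opposite strand.

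The angiopoietins moved in opposite directions. Angpt1 (ENSMUSG00000022309, chromosome 15, 42424723 to 42676977, minus strand), the Tie2 agonist that perivascular and stromal cells usually supply, had 9.66, 11.4 and 9.93 normalized CPM under normal glucose and 19.1, 21.9 and 20.2 under high glucose. Every high-glucose sample was far above every normal-glucose sample, with a log2 fold change of 0.98 (SE 0.0805, 95% interval 0.80 to 1.16, edgeR quasi-likelihood BH-adjusted p = 9.6e-06), or a 1.97-fold level. The antisense gene Gm17473 shares 737 bases with its exons, 14.16% of their length, and had 0 to 10 counts per sample itself. Strand use in the counting is not stated, so reads from the 2 genes cannot be told apart.

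Angpt2 (ENSMUSG00000031465, chromosome 8, 18690263 to 18741562, minus strand), the context-dependent Tie2 antagonist, changed more than any other member. It had 9.09, 9.40 and 9.68 normalized CPM under normal glucose and 3.21, 3.49 and 3.58 under high glucose. The high-glucose samples lay below all normal-glucose samples, at a level 2.74-fold lower (log2 fold change -1.46, SE 0.0824, 95% interval -1.64 to -1.27, edgeR quasi-likelihood BH-adjusted p = 7.6e-07). These values rest on 406 to 1334 counts per sample.

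Within each library the ratio of Angpt2 to Angpt1, per kilobase of exon, does not depend on the scaling between samples. It was 1.33, 1.17 and 1.38 under normal glucose and 0.238, 0.225 and 0.250 under high glucose. Angpt2 was thus the more abundant transcript in all normal-glucose samples and Angpt1 in all high-glucose samples, a 5.42-fold difference between the group means (log2 difference -2.44). A two-sided exact permutation test gave p = 0.1, the smallest that 3 against 3 samples allow, and 0.125 after BH adjustment over 5 ratios. With the longest transcript as the length, the normal-glucose ratios were 1.13, 0.991 and 1.17, so the order under normal glucose rests on the length used, whereas the high-glucose ratios were 0.202, 0.191 and 0.212.

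Their receptor Tek was scarce, at 1.29 ± 0.134 normalized CPM under normal glucose and 2.04 ± 0.127 under high glucose (SD, n = 3), and rose by 0.66 on the log2 scale (edgeR quasi-likelihood BH-adjusted p = 0.00219). Tie1, its partner receptor, had 0 to 2 counts per sample and was not tested. Ptprb, the phosphatase that acts on Tie2, was at 0.22 on the log2 scale of change and did not pass (adjusted p = 0.359, same edgeR test). Angpt2, Cdh5, Flt1 and Egfl7, genes that ECs usually express, were lower in the same samples. Tek, Plvap and Erg of the endothelial list were higher, and 5 of its 11 tested genes did not pass. The call of Erg rests on 2 to 15 counts per sample (adjusted p = 0.0453, edgeR). The part that a shift in cell types has in the angiopoietin values was not tested.

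Both angiopoietin-like members rose and were among the more abundant transcripts of the group. Angptl4 (ENSMUSG00000002289, chromosome 17, 33773750 to 33781830, minus strand) encodes an inhibitor of lipoprotein lipase and is a known target of PPAR factors and of hypoxia signalling. It had 183, 199 and 203 normalized CPM under normal glucose and 390.1, 386 and 411 under high glucose. The level was close to doubled in every high-glucose sample, with a log2 fold change of 1.02 (SE 0.0575, 95% interval 0.89 to 1.15, edgeR quasi-likelihood BH-adjusted p = 7.5e-07), the smallest adjusted p among the members.

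Angptl2 (ENSMUSG00000004105, chromosome 2, 33216069 to 33247717, plus strand), a secreted protein of adipose and stromal cells linked to tissue inflammation, was the most abundant member. It had 887, 1070.5 and 1118 normalized CPM under normal glucose and 1324, 1293 and 1334 under high glucose. The groups did not overlap, and normal glucose replicate 1 was the lowest sample. The log2 fold change was 0.36 (SE 0.0791, 95% interval 0.19 to 0.54, edgeR quasi-likelihood BH-adjusted p = 0.00603) and 0.25 without that sample (adjusted p = 0.00142, edgeR). Over all 19 alternatives the adjusted p of Angptl2 ranged from 1.4e-04 to 0.0338, the highest without high glucose replicate 3.

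Lpl, the lipase that Angptl4 inhibits, was higher as well, from 4212 ± 131 to 6475 ± 233 normalized CPM (SD, n = 3), and its log2 fold change was 0.62 (edgeR quasi-likelihood BH-adjusted p = 1.2e-05). Gpihbp1, which anchors the lipase on capillary ECs, had 0 counts in every sample, which allows up to the floor given above. Of 5 adipocyte markers, Adipoq, Plin1 and Cidec were higher, Fabp4 did not pass (log2 fold change 0.11, adjusted p = 0.475, edgeR) and Lep had 0 to 4 counts. Their summed level was 207 to 258 normalized CPM under normal glucose and 246 to 283 under high glucose. Most of it came from Fabp4, with means of 169 under normal and 182 under high glucose. The part of these markers in the change of Angptl4 and Lpl was not tested. The fibroblast markers moved with the same members: 10 of 11 were higher and 1, Thy1, was lower, and their part was not tested either.
Angptl2 signals through integrin alpha5 beta1 and, on immune cells, through Pirb. Itgb1 fell from 1069 ± 25.1 to 901 ± 47.7 normalized CPM (SD, n = 3; log2 fold change -0.25, edgeR quasi-likelihood BH-adjusted p = 0.00673). Itga5, at -0.12 on the log2 scale, did not pass (adjusted p = 0.107, edgeR), although it passed under 5 of the alternatives with the same sign. Pirb had 0 counts in every sample. Among other angiopoietin-like genes, Angptl6 was at 0.38 on the log2 scale of change and did not pass (adjusted p = 0.126, edgeR). With 117 to 216 counts per sample, Angptl6 shares 16.75% of its exon length with A230050P20Rik on the opposite strand. That gene had 2893 to 4328 counts per sample. Angptl1 and Angptl7 had too few counts to be tested.

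Both neuropilins rose. Nrp1 (ENSMUSG00000025810, chromosome 8, 128358604 to 128503363, plus strand), the coreceptor for VEGF ligands and semaphorin 3A, had 75.5, 88.2 and 89.3 normalized CPM under normal glucose and 127, 129 and 127 under high glucose. The high-glucose samples were nearly equal and all above the normal-glucose samples, with a log2 fold change of 0.60 (SE 0.0673, 95% interval 0.45 to 0.75, edgeR quasi-likelihood BH-adjusted p = 8.3e-05). The microRNA gene Mir1903, with 1 count in each sample, shares 80 bases with its exons.

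Nrp2 (ENSMUSG00000025969, chromosome 1, 62703285 to 62818695, plus strand), the coreceptor for VEGF-C and semaphorin 3F, had 230.4, 258 and 253 normalized CPM under normal glucose and 297, 307 and 298 under high glucose. The groups did not overlap, and the log2 fold change of 0.28 (SE 0.0564, 95% interval 0.16 to 0.41, edgeR quasi-likelihood BH-adjusted p = 0.00352) was the smallest among the members that rose. It was lowest, at 0.15, with each library's GC and length trend removed (adjusted p = 0.0104, and 0.0311 with the replicate block added, edgeR), and it was 0.17 with library size scaling, which gave the highest adjusted p over the alternatives (0.038, edgeR; the lowest was 1.1e-04). Normal glucose replicate 1 was the lowest sample for both neuropilins, and without it the log2 fold changes were 0.51 for Nrp1 and 0.22 for Nrp2.

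The class 3 semaphorins diverged: of 7 tested, Sema3c, Sema3d and Sema3f were higher, Sema3a was lower and 3 did not pass. Sema3a, a repulsive ligand of Nrp1, had 37.9, 47.3 and 42.7 normalized CPM under normal glucose and 19.2, 20.7 and 19.2 under high glucose, and its level fell by 1.11 on the log2 scale (edgeR quasi-likelihood BH-adjusted p = 3.8e-06). Sema3f, a ligand of Nrp2, rose by 0.54 and Sema3c by 0.55 (adjusted p = 4.1e-05 and 2.7e-04, same edgeR test). Sema3d rose by 1.22 from 1.38 ± 0.169 normalized CPM (SD, n = 3; adjusted p = 4.5e-05, edgeR). Sema3b, Sema3e and Sema3g had log2 fold changes of -0.19, 0.15 and -0.22, and Sema3b passed under 9 of its alternatives.
Of the plexins that signal for the neuropilins, Plxna2, Plxna4 and Plxnd1 rose by 1.03, 1.35 and 0.64 on the log2 scale (edgeR quasi-likelihood BH-adjusted p = 1.2e-05, 8.2e-06 and 5.4e-05). Plxna1 and Plxna3 did not pass, nor did Gipc1, the adaptor that binds the tail of Nrp1.

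**Figure D2:**
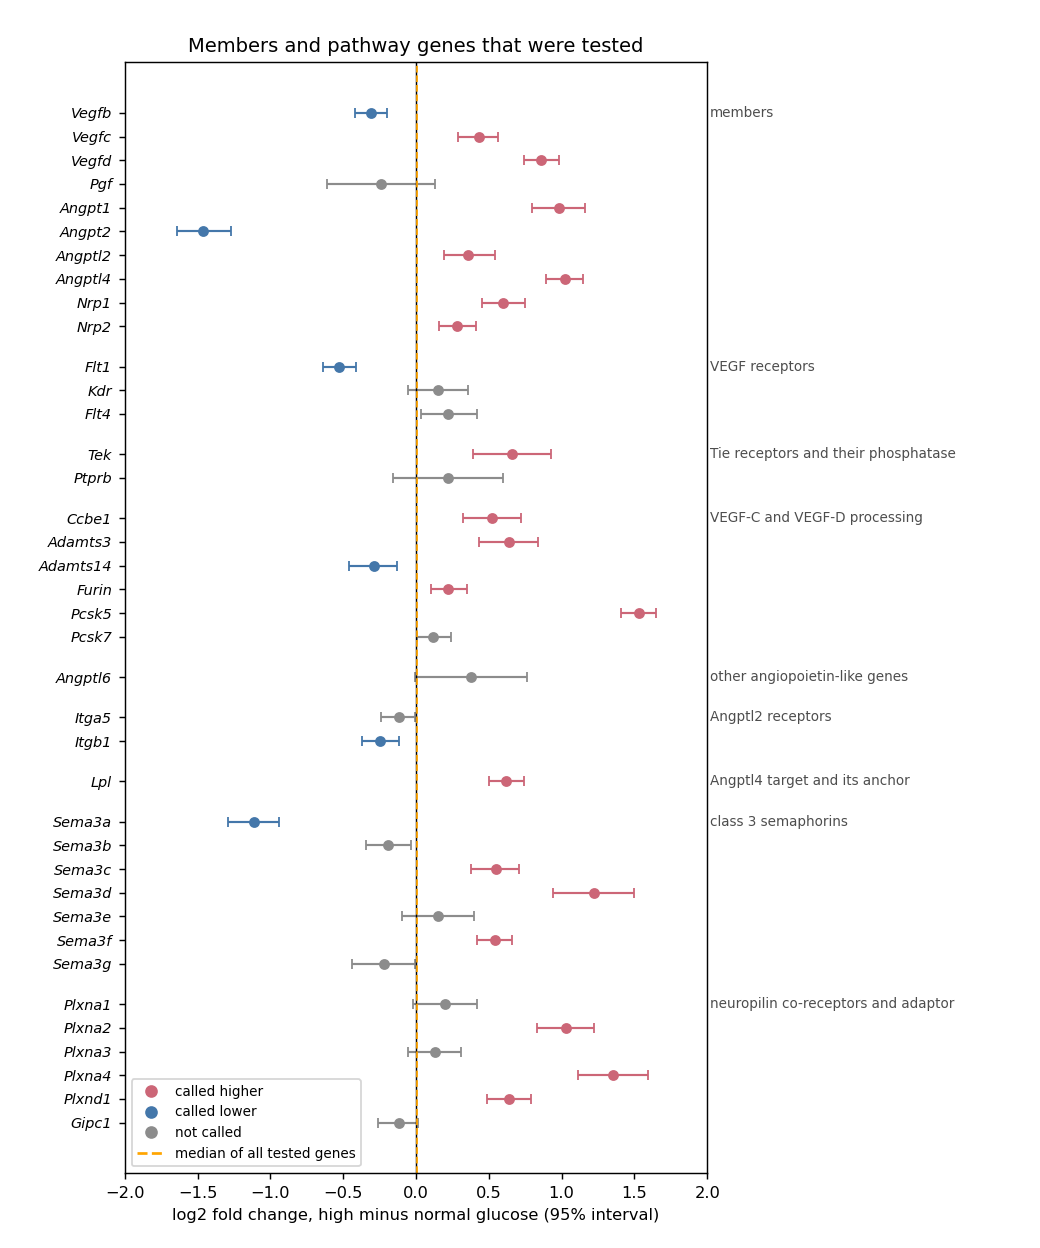
Log2 fold change in high against normal glucose with its 95% interval for the 10 members and the 28 tested genes of the pathway lists, grouped by role, with called genes in color and the median of all tested genes as a dashed line. The members span -1.46 (Angpt2) to 1.02 (Angptl4), and Pcsk5 at 1.53 lies farthest to the right.

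Over all 34 genes of these pathway lists, 28 were tested, 12 were higher, 4 were lower and 12 did not pass, with a median log2 fold change of 0.22. With library size scaling 11 were higher and 8 lower, with Itga5, Sema3b, Sema3g and Gipc1 added to the lower ones. Shares of this size are to be read against the 31.4% of all tested genes that passed. Among the 10011 tested genes whose mean log2 CPM was 3 or more, 38.2% passed.

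Levels of different genes were compared as normalized CPM per kilobase of exon, using the union of each gene's annotated exons. Under normal glucose Angptl2 was highest at 163 ± 19.4 (SD, n = 3), followed by Vegfd at 64.2 ± 1.17 and Angptl4 at 55.1 ± 3.03. Vegfb (23.7 ± 0.603) and Nrp2 (20.9 ± 1.23) came next, then Nrp1 (8.62 ± 0.787), Vegfc (5.91 ± 0.0309), Angpt2 (2.54 ± 0.0807), Angpt1 (1.98 ± 0.175) and Pgf (0.449 ± 0.0865). No neighbours in this order overlapped between samples. With the longest transcript as the length, Vegfb and Nrp2 changed places.

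Under high glucose Angptl2 remained first at 209 ± 3.36 (SD, n = 3), and Vegfd (117 ± 5.68) and Angptl4 (112 ± 3.73) overlapped. Nrp2 at 25.4 ± 0.496 was above Vegfb at 19.1 ± 0.124, and Angpt1 at 3.91 ± 0.275 was above Angpt2 at 0.928 ± 0.0523, in both cases the reverse of the order under normal glucose by the union of exons. Nrp1 (13.1 ± 0.126), Vegfc (7.95 ± 0.469) and Pgf (0.379 ± 0.0483) kept their places. Among the 4 VEGF family ligands examined here (Vegfb, Vegfc, Vegfd and Pgf), Vegfd was the most abundant per kilobase in both groups and Pgf the least.

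**Figure D3:**
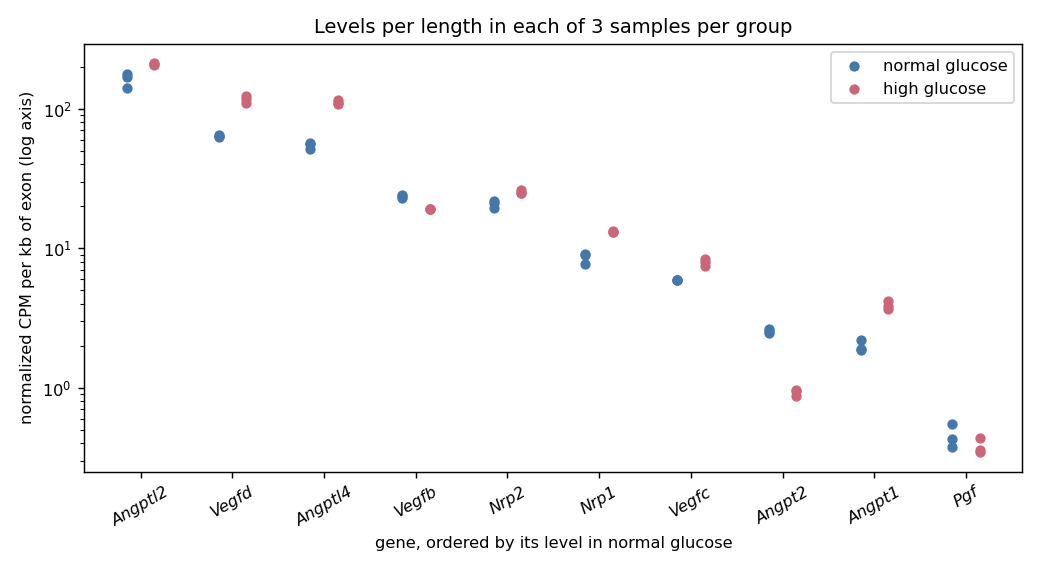
Normalized CPM per kilobase of exon (log axis) in each of the 3 normal-glucose (blue) and 3 high-glucose (red) samples, with genes ordered by their level under normal glucose. Levels run from 0.449 (Pgf) to 163 (Angptl2) under normal glucose, and the red points of Angpt1 and Angpt2 lie on either side of the blue ones.

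Pairs of related members were compared within each library by the log2 ratio of their levels per kilobase, which scaling between samples cannot move. Apart from the angiopoietins, the ratio of Angptl4 to Angptl2 was 0.366, 0.331 and 0.322 under normal glucose and 0.523, 0.530 and 0.546 under high glucose, a log2 difference of 0.65. The ratio of Vegfc to Vegfd was 0.0933, 0.0898 and 0.0930 under normal glucose and 0.0671, 0.0685 and 0.0685 under high glucose, a log2 difference of -0.44. In neither ratio did a high-glucose sample overlap a normal-glucose sample.
Nrp2 remained the more abundant neuropilin per kilobase, with a ratio to Nrp1 of 2.52, 2.41 and 2.34 under normal glucose and 1.93, 1.97 and 1.93 under high glucose, a log2 difference of -0.32. This difference was -0.48 with the GC and length trend removed. With the longest transcript as the length, the normal-glucose levels were closer, at 36.7 for Nrp2 and 23.1 for Nrp1. Each of these 3 ratios separated the groups, with the smallest p that a two-sided exact permutation test allows here (0.1, and 0.125 after BH adjustment over the 5 ratios). The ratio of Pgf to Vegfb overlapped between groups (log2 difference 0.08, exact permutation p = 0.7), and its sign was reversed without normal glucose replicate 3 or high glucose replicate 3.

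**Figure D4:**
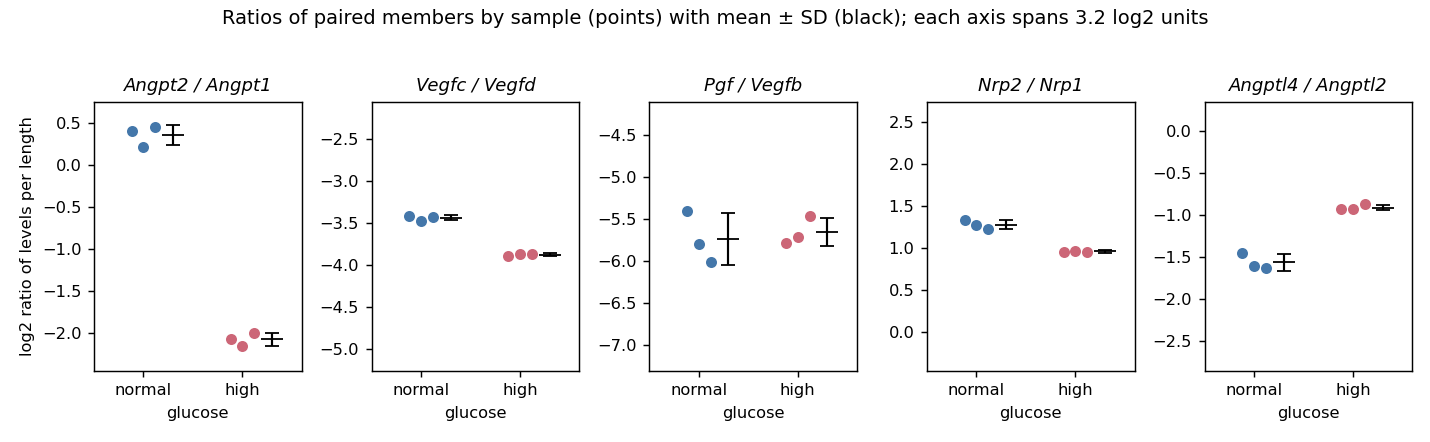
Log2 ratio of the levels per kilobase of exon for 5 pairs of members in each of the 3 normal-glucose (blue) and 3 high-glucose (red) samples, with mean and SD in black and the same span on every axis. The Angpt2 to Angpt1 ratio differs most between the groups, by -2.44, and only Pgf to Vegfb overlaps between the groups.

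Angptl4, the member with the smallest adjusted p, was compared with all other tested genes over the 6 samples. The genes with the most similar profile of log2 CPM were Ptprz1, Rnf122, C3, Fmod and C1rb, with Pearson's r of 0.9997, 0.9994, 0.9994, 0.9993 and 0.9991. Their own log2 fold changes were 1.45, 0.75, 2.01, 0.83 and 1.22. The 6 points fall into the 2 groups, and 357 genes reached r of at least 0.99, so this likeness is a description of the group difference and is shared by many genes.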

How the data were processed

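RNA-sequencing counts of 6 mouse skin cultures (3 in normal and 3 in high glucose, grouped and numbered by their labels) were analysed. The authors trimmed reads with Trimmomatic, aligned them to GRCm38 (mm10) with HISAT2 and obtained gene counts with StringTie, and the deposited table holds whole-number counts per Ensembl gene without normalization. Versions, strand setting and annotation release are not given in the sources used here. The labels name TRIzol and DNBSeq, the paper's methods a QIAGEN kit and HiSeq. Among low entries 2 was nearly as frequent as 1 (9280 against 10842), as counting both mates of a pair can give, so halved counts were tried. Floors cover counting error only.

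Total counts were 120192466 to 146881356 per sample. Symbols matched for 55141 of the 55487 identifiers. Genes were filtered with filterByExpr (minimum count 10, total 15), scaled with TMM and tested with the quasi-likelihood test of edgeR 4.0.16 in R 4.3.3 (BH-adjusted p under 0.05 over 19015 genes), after testing the scripts on simulated data. The biological coefficient of variation was 8.44%. Replicates differed by more than sampling noise (chi-square per degree of freedom 9.03 to 54.7). The largest values, 54.7 and 36.7, were those of normal glucose replicate 1 against replicates 2 and 3. Normalized CPM were divided by the union of exons in a GENCODE annotation of GRCm38. Ratios used a pseudocount of 0.5 counts and exact permutation tests (SciPy 1.17.1). Promoters came from RefSeq (GRCm38.p6). The members, gene lists and marker lists (endothelial, lymphatic endothelial, fibroblast, mural, macrophage, keratinocyte, adipocyte) were chosen with earlier results of these data known. All members, the list genes (a few are not reported here), and the 5 genes most correlated with the member of smallest adjusted p were named. Alternatives were other scalings, filters, tests (DESeq2 1.42.0 among them), thresholds, the replicate block, halved counts, GC and length trends removed (mgcv 1.9.3) and each sample left out. Those for pathway and marker genes and for transcript length were added after seeing the data.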

Additional observations from a re-analysis of the deposited data

How the results depend on the processing

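All 190 recomputed log2 fold changes of the 10 members (19 alternatives each) had the sign and the call reported. The counts of members called, 2 lower and 7 higher, moved only with a minimum log2 fold change of 1, to 1 lower and 1 higher. Over all tested genes, calls were 4881 lower and 1819 higher with library size scaling, 1671 and 1946 at an adjusted p under 0.01, and 542 and 395 with the minimum log2 fold change. Leaving out 1 sample gave 2048 to 3065 lower and 1988 to 3149 higher calls; without high glucose replicate 1 or 3 the higher calls were 2010 and 1988. Replicate numbers 1 to 3 recur in the groups, but deviations of same-numbered samples correlated at -0.025, 0.0038 and 0.013, so the numbers gave no pairing; with the replicate block 2418 genes were lower and 2909 higher, and the members' calls stayed at 2 and 7. The difference between the groups in the Pgf to Vegfb log2 ratio ranged from -0.056 to 0.25 without 1 sample, with -0.016 without high glucose replicate 3. The other ratios kept their direction in all 8 alternatives. Of 28 pathway genes, 19 kept direction and call throughout. With GC and length trends removed, the uncalled log2 fold changes of Ptprb, Plxna1 and Plxna3 became -0.00068, -0.0099 and -0.022, and with the block added those of Plxna1 and Plxna3 were -0.0067 and -0.024. The cause was not tested for any of these values. Depth limits the genes with few counts: Pgf had the fewest of the members, and Tie1 could not be tested.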

Other observations

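Of 9 mural markers, 8 were tested, 2 were higher (Rgs5 and Abcc9) and 3 lower (Cspg4, Acta2 and Des). The summed level of all 9 was 918 to 1009 normalized CPM in normal glucose and 882 to 942 in high glucose. Of 5 lymphatic endothelial markers, the tested pair, Prox1 and Flt4, did not pass edgeR's test. The summed level of all 5 was 6.37 to 7.51 normalized CPM in normal glucose and 7.53 to 8.49 in high glucose. Of 7 macrophage markers, 4 were tested, and Cd68 and Csf1r were lower. Of 7 keratinocyte markers, 3 were tested, and Krt5 was higher from a mean of 0.0152 normalized CPM, which is below the floor of 3 counts.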
